A study of Caenorhabditis elegans with 4 samples.

Results

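The cytosolic heat shock genes of the nematode Caenorhabditis elegans described here were 10 genes of 41602 measured in whole animals. They were chosen by name, matched to the transcript table by gene symbol, and all 10 were found. The list holds the regulator hsf-1, the constitutive chaperones hsp-1 and hsp-110, the heat-inducible chaperone hsp-70, and 6 small heat shock genes, hsp-16.1, hsp-16.2, hsp-16.11, hsp-16.41, hsp-16.48 and hsp-16.49. RNA-seq had been done on wild type animals, labelled control, and on animals carrying the dve-1 allele uf171, with 2 libraries per genotype. The DVE-1 protein carries homeodomains and is best known for its work in the response to unfolded proteins in mitochondria. Both genotypes were kept at 25 °C on plates with Escherichia coli OP50 and were synchronised, with RNA from about 1200 pooled larvae per library. The labels give the L4 stage, whereas the protocol text speaks of L1 larvae, so the stage is given as labelled. The sources used here do not say what uf171 changes in the gene, and no heat shock was part of the described treatment.

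In the cytosol, unfolded proteins are handled by chaperones whose genes are under the control of the transcription factor HSF-1. On heat or other protein damage HSF-1 trimerises, binds heat shock elements in promoters and strongly raises transcription of the inducible genes. Small heat shock proteins hold unfolded clients without using ATP, while HSP70 proteins refold them in cycles of ATP use, helped by J proteins and by exchange factors of the HSP110 family. The hsp-16 genes of C. elegans are known for their low level in unstressed animals and their strong response to heat, and hsp-16.2 is a common reporter of that response.

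The levels used are FPKM, fragment counts scaled to transcript length and to the number of mapped fragments, which allows genes to be compared. Depth was about 14000000 to 15400000 fragments per library, as read from the spacing of the low values. dve-1 itself was at 14.2 and 13.9 FPKM in libraries of wild type, with 22.98 and 21.13 FPKM in those of the mutant, which does not check the genotype labels because the nature of the allele is not given. Markers of muscle, intestine, neurons, hypodermis and germ line were all detected, apart from rab-3, which was listed at 0 in dve-1 mutant replicate 1, and from unc-15, snb-1 and msp-19, which were not analysed here. Nothing in the labels says that the libraries came from separate cultures, and the spread behind each p-value is that between these libraries and may be technical. In whole animals, a change in the number of cells of a type and a change in RNA per cell cannot be told apart.

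None of the 10 genes passed the test between the genotypes. All 10 passed the filter on low values, and in 10 of 10 the values of the genotypes overlapped. Separation of the genotypes was seen for 0 of the 10, against 28.1% of the 14652 genes tested. At an adjusted p under 0.05 (limma, Benjamini-Hochberg over all genes), 0 of the 10 passed, where 0.13% of all genes did, a share that went to 0 when any 1 library was left out, and 0 of the 10 had an unadjusted p under 0.05. The adjusted p was 0.9995 for each of the 10. By sign, 7 of the 10 were lower and 3 higher in the dve-1 mutant, where 53.8% of all tested genes were lower. That count of lower genes turned to 2 of 10 without wild type replicate 1 and to 3 of 10 without mutant replicate 2, and was 9 of 10 without wild type replicate 2. Of all tested genes, 46.5%, 56.3% and 61.5% were lower without those libraries, in the same order. The 95% intervals of hsp-70 and of hsp-16.1, hsp-16.11, hsp-16.48 and hsp-16.49 held a 2-fold change in either direction, those of hsp-16.2 and hsp-16.41 a 2-fold decrease and that of hsf-1 a 2-fold increase, and those of hsp-1 and hsp-110 neither. For each of the 10 but hsp-1, the wild type replicates differed from each other by more than the means of the genotypes did. That sets single libraries against means of libraries, which vary less. The share of all tested genes with this pattern was not computed, so the count is not particular to these genes.

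**Figure D1:**
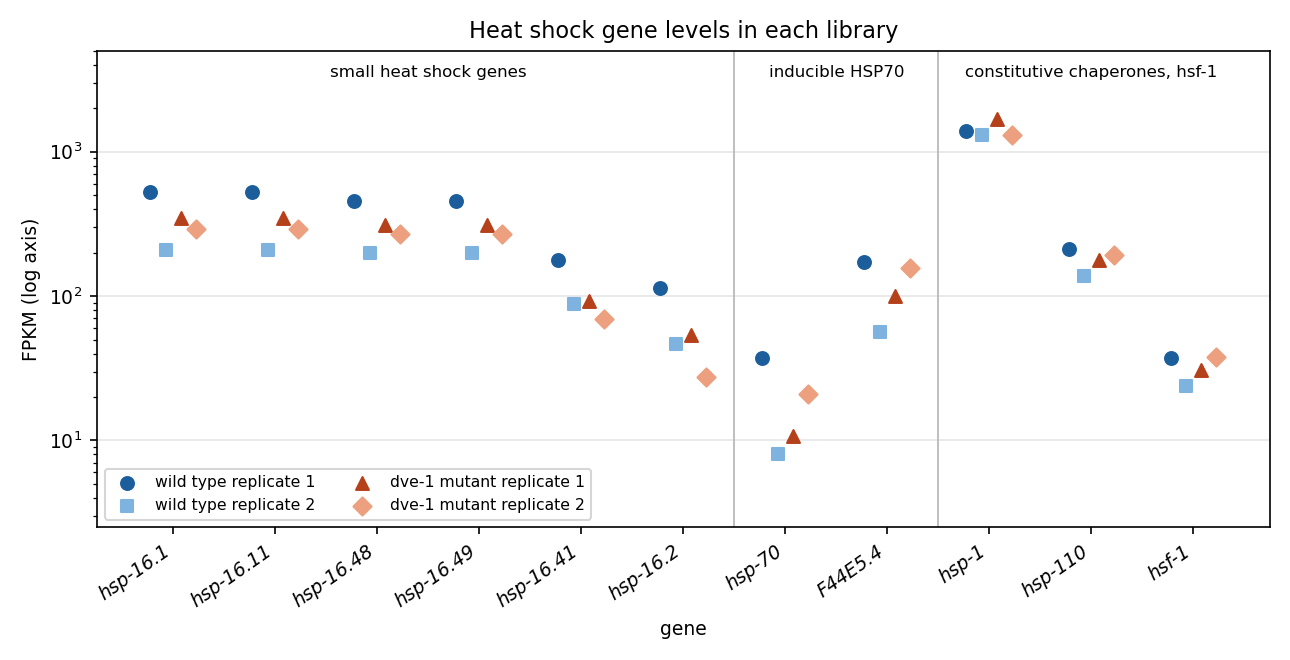
FPKM of each gene (vertical log axis) in each of the 4 libraries, 1 point per library, for the small heat shock genes, hsp-70, its paralog F44E5.4, and the constitutive chaperones with hsf-1. Wild type replicate 1 is the highest library for the 6 hsp-16 genes and for hsp-70, hsp-1 varies least, and in no gene do both libraries of a genotype lie apart from both libraries of the other.

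hsf-1, which encodes the heat shock transcription factor itself, was expressed at a modest level. The gene (Y53C10A.12; chromosome I, 11953507 to 11963085 on the minus strand, WBcel235, the assembly also named ce11) gave 37.3 FPKM in wild type replicate 1, 23.7 FPKM in replicate 2, and 30.8 and 38.02 FPKM in mutant replicates 1 and 2. The wild type values enclosed the first mutant value, and the second lay just above them. The means were 30.5 ± 9.60 and 34.4 ± 5.14 FPKM (SD, n = 2 each), with a log2 fold change of 0.19 (SE 0.30, 95% interval -0.64 to 1.03).

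hsp-1 encodes the constitutive cytosolic HSP70 and had by far the highest level of the list. The gene (F26D10.3; chromosome IV, 17278959 to 17281330, plus strand) gave 1390 and 1298 FPKM in wild type libraries, compared with 1687 and 1311 FPKM in mutant libraries. Its level exceeded that of 98.4% to 98.8% of the tested genes in each library, and its highest library was 1.3 times its lowest. The log2 fold change was 0.15 (SE 0.18, 95% interval -0.35 to 0.64). hsp-110 encodes the exchange factor that opens HSP70 for a new cycle. This gene (C30C11.4; chromosome III, 8443910 to 8446909, minus strand) reached 211 and 137 FPKM among wild type libraries, whereas mutant libraries gave 178 and 193 FPKM, so that both mutant values lay between those of wild type. The log2 fold change was 0.13 (SE 0.26, 95% interval -0.60 to 0.85).

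hsp-70 is counted with the inducible genes here, since it encodes the heat-inducible HSP70 and not a constitutive form. It had the lowest mean level of the list and the widest range. The gene (C12C8.1; chromosome I, 9320325 to 9322519, minus strand) was at 37.5 and 8.03 FPKM in libraries of wild type, with 10.8 and 20.8 FPKM in those of the mutant. The wild type libraries thus differed by 4.67-fold and held both mutant values between them. The log2 fold change of -0.22 had an interval of -2.59 to 2.15 (SE 0.84). The gene lies wholly within uggt-2 on the opposite strand, overlapping none of its exons in the Ensembl annotation, and the strandedness of the libraries is not given in the sources used here. uggt-2 was below hsp-70 in each library, with 6.31 and 4.10 FPKM in libraries of wild type, and 3.45 and 4.69 FPKM in those of the mutant.

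The other heat-inducible HSP70 genes, F44E5.4 and F44E5.5, lie side by side on opposite strands of chromosome II and belong to the wider HSP70 list. F44E5.4 gave 171 and 56.6 FPKM in wild type libraries, compared with 99.9 and 155 FPKM in mutant libraries, and F44E5.5 carried the same values to 3 digits, and how fragments were divided between these near-identical copies is not stated. Their order of libraries was that of hsp-70, with wild type replicate 1 highest, then mutant replicate 2, mutant replicate 1 and wild type replicate 2.

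The 6 hsp-16 genes lie on chromosome V in divergent pairs, each pair with a gene on either strand reading away from a short shared upstream region. In the first pair, hsp-16.2 (Y46H3A.3; 1804334 to 1804957, minus strand) and hsp-16.41 (Y46H3A.2; 1805178 to 1805875, plus strand) have start sites 221 nucleotides apart. The other 4 genes form a cluster of such pairs. There hsp-16.1 (T27E4.8; 9087293 to 9087782, minus strand) and hsp-16.48 (T27E4.3; 9088131 to 9088617, plus strand) have start sites 349 nucleotides apart, and hsp-16.49 (T27E4.9; 9089280 to 9089766, minus strand) and hsp-16.11 (T27E4.2; 9090077 to 9090604, plus strand) have start sites 311 nucleotides apart. Each of the 6 genes has 2 exons.

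**Figure D2:**
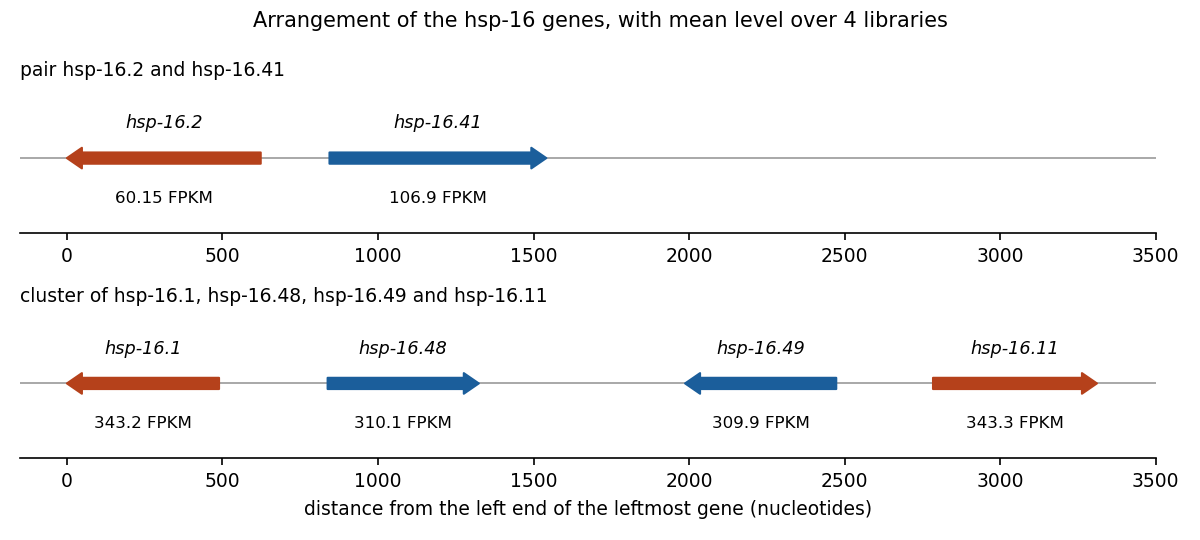
Positions of the hsp-16 genes to scale, as distance in nucleotides from the left end of the leftmost gene of each locus (the same scale for both loci). Arrows give the direction of transcription, red for hsp-16.2, hsp-16.1 and hsp-16.11 and blue for hsp-16.41, hsp-16.48 and hsp-16.49, and the number below each is its mean FPKM over the 4 libraries, from 60.2 for hsp-16.2 to 343 for hsp-16.1 and hsp-16.11.

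The cluster genes had the higher levels of the family, above at least 92.8% of the tested genes in every library. hsp-16.1 reached 525 and 209 FPKM among wild type libraries, whereas mutant libraries gave 347 and 292 FPKM, above 93.1% to 96.6% of the tested genes. hsp-16.11 matched it at 525 and 209 against 347 and 292 FPKM. hsp-16.48 was at 459 and 199 FPKM in libraries of wild type, with 311 and 271 FPKM in those of the mutant, and hsp-16.49 matched that gene at 459, 199, 311 and 271 FPKM. For all 4, wild type replicate 1 was highest, wild type replicate 2 lowest, and both mutant libraries lay between. The ratio of hsp-16.1 to hsp-16.11 ran from 0.9993 to 1.00 over the libraries and that of hsp-16.48 to hsp-16.49 from 1.00 to 1.001. hsp-16.1 and hsp-16.11 are known as near-identical copies, as are hsp-16.48 and hsp-16.49, so the division of fragments within each is uncertain and the 4 genes hold no more than 2 separate measurements. The log2 fold changes were -0.06 for each of the 4, with 95% intervals from -1.47 to 1.36 for hsp-16.1 and from -1.34 to 1.23 for hsp-16.48.

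The genes of the first pair were lower, and their mutant values lay toward the bottom of the range. hsp-16.41 gave 178 and 88.2 FPKM in wild type libraries, compared with 91.9 and 69.2 FPKM in mutant libraries. Its log2 fold change was -0.65 (SE 0.41, 95% interval -1.81 to 0.52). hsp-16.2 reached 113 and 46.5 FPKM among wild type libraries, whereas mutant libraries gave 53.9 and 27.3 FPKM, a mean of 79.7 ± 47.0 against 40.6 ± 18.8 FPKM. For both genes mutant replicate 1 lay between the wild type libraries and mutant replicate 2 below them. The log2 fold change of hsp-16.2, the largest in size of the 10, was -0.90 (SE 0.59, 95% interval -2.56 to 0.77), and only 1 of its 2 annotated transcript accessions was in the table. With the estimated depth and annotated length, the lowest of the hsp-16 values, hsp-16.2 in mutant replicate 2, rests on about 221 fragments and the highest, hsp-16.11 in wild type replicate 1, on about 3723.

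**Figure D3:**
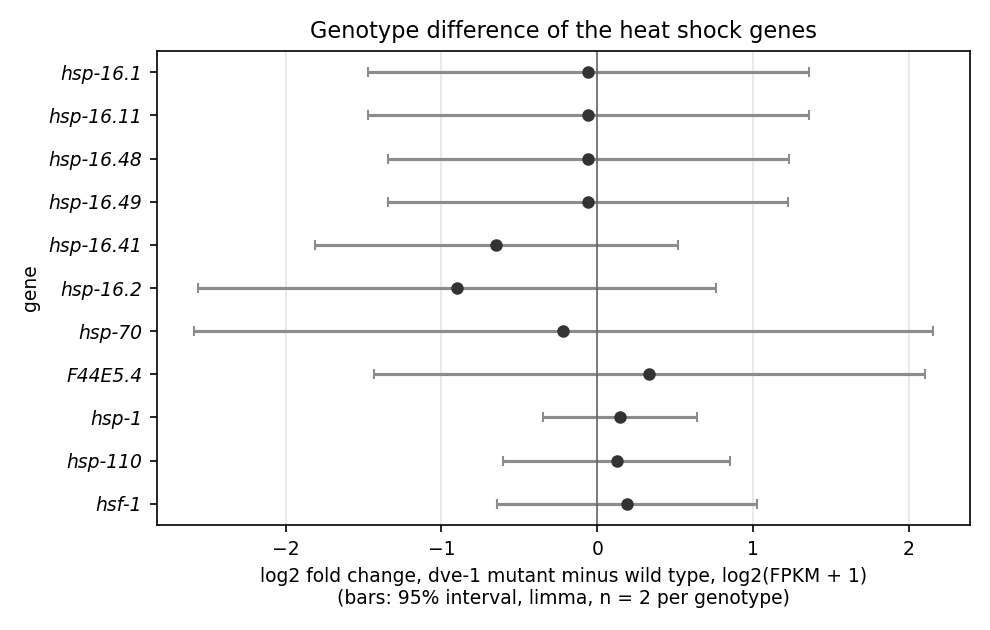
Log2 fold change of each gene, mutant minus wild type in log2(FPKM + 1) (horizontal axis), with 95% intervals from limma and n = 2 libraries per genotype. Every interval holds 0, and the intervals of the inducible genes are wider than those of hsp-1, hsp-110 and hsf-1.

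Summed over the 6 genes, the hsp-16 level came to 2259 and 950 FPKM in libraries of wild type, and to 1462 and 1223 FPKM in those of the mutant. The means were 1605 ± 925 and 1343 ± 170 FPKM (SD, n = 2 each), a ratio of 0.837. The direction of this ratio rested on wild type replicate 1: the log2 ratio was -0.26 with all libraries and 0.50 without that library. This log2 ratio is taken from mean FPKM, whereas the log2 fold changes of single genes are differences of mean log2 values. On the latter measure the sum gave -0.13 with all libraries. Within each library, the cluster of 4 genes was set against the pair. The summed level of the cluster was 6.76 and 6.06 times that of the pair in wild type and 9.03 and 11.7 times in the mutant, so on this ratio the genotypes did not overlap. The exact permutation test over the 4 libraries, two-sided, gave p = 0.333, the smallest that 2 against 2 libraries can give. The ratio was chosen after the values were seen.

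By mean level over the 4 libraries the order was hsp-1 at 1421 FPKM, hsp-16.11 and hsp-16.1 at 343 FPKM, hsp-16.48 and hsp-16.49 at 310 FPKM, hsp-110 at 180 FPKM, hsp-16.41 at 107 FPKM, hsp-16.2 at 60.2 FPKM, hsf-1 at 32.5 FPKM and hsp-70 at 19.3 FPKM. Only hsp-1 was separated from its neighbour by more than the range over libraries. For every other step the ranges of the neighbours overlapped. In 4 of 4 libraries, however, hsp-16.49 was above hsp-110, hsp-110 above hsp-16.41, and hsp-16.41 above hsp-16.2. hsp-16.2 was above hsf-1 in 3 of 4 libraries, and hsf-1 above hsp-70 in 3 of 4.

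The replicates of a genotype were then compared with each other, a comparison chosen after the values were seen and with 1 library on each side, so it has no replicate check. In wild type, 9 of the 10 genes were higher in replicate 1 by more than 1.5-fold on the log2(FPKM + 1) scale, against 14.9% of all tested genes. The exception was hsp-1, with a ratio of 1.07. The ratios of replicate 1 to replicate 2 were 4.67 for hsp-70, 2.51 for hsp-16.1, 2.43 for hsp-16.2, 2.31 for hsp-16.48 and 2.02 for hsp-16.41, and 1.57 and 1.54 for hsf-1 and hsp-110. The inducible genes thus differed by 2-fold or more and the constitutive genes and the regulator by less. The difference of hsp-70 was above that of 98.2% of the tested genes and that of the hsp-16 genes above 94.4% to 96.5%. The median tested gene was itself higher in replicate 1, by 0.13 on the log2 scale, and relative to it hsp-1 was lower by sign, at -0.03, while the other 9 remained above it.

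Between the mutant replicates the inducible genes differed in both directions. All 6 hsp-16 genes were higher in replicate 1, by ratios of 1.15 for hsp-16.48, 1.19 for hsp-16.1, 1.33 for hsp-16.41 and 1.98 for hsp-16.2. hsp-70 ran the other way and was 1.93 times higher in replicate 2, as was F44E5.4, by 1.55 times. The median tested gene had a log2 difference of -0.02, replicate 1 minus replicate 2. The near-identical copies hsp-16.11 and hsp-16.49 add no separate measurement to the 6, and the differences of the cluster genes were small. Past 1.5-fold in either direction on the log2(FPKM + 1) scale were hsp-16.2 and hsp-70, 2 of the 10, against 28.8% of all tested genes. The summed hsp-16 level was accordingly 60.2 and 118 times that of hsp-70 in wild type and 136 and 58.7 times in the mutant, with wild type replicate 1 and mutant replicate 2 alike.

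**Figure D4:**
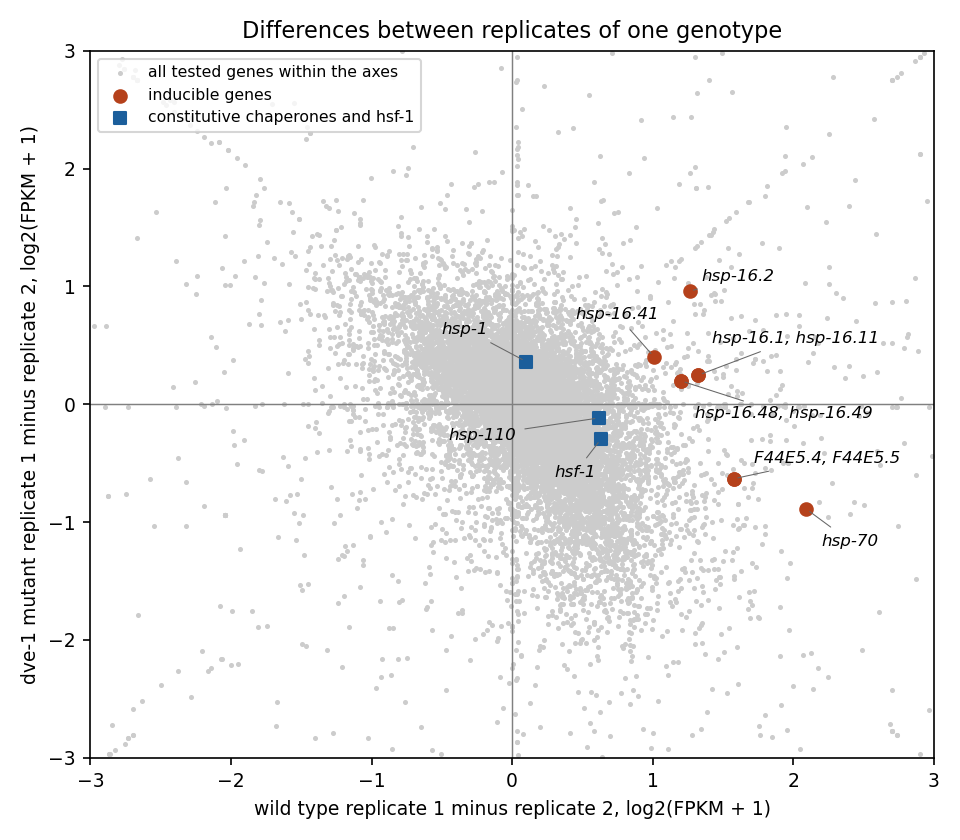
Difference between replicates in wild type (horizontal axis) and in the dve-1 mutant (vertical axis), both as replicate 1 minus replicate 2 on the log2(FPKM + 1) scale. Grey points are tested genes within the axes, red circles the inducible genes and blue squares hsp-1, hsp-110 and hsf-1. The hsp-16 genes lie to the right and above 0, hsp-70 and F44E5.4 to the right and below 0.

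The within-genotype SD on the log2 scale was 1.14 for hsp-70, larger than that of 94.8% of tested genes. It was 0.79 for hsp-16.2, 0.54 to 0.67 for the other hsp-16 genes, which exceeded 80.4% to 86.4% of tested genes, and 0.19 for hsp-1, above 35.7%. Other measures also differed between these libraries. Summed marker levels in wild type replicate 1 relative to replicate 2 were 1.37 for sperm, 1.29 for oocytes, 1.17 for the germ line, 0.977 for the intestine, 0.911 for the hypodermis, 0.752 for body wall muscle, 0.758 for pharyngeal muscle and 0.453 for neurons. The intestine sum was mostly act-5, with a ratio of 0.989, while elt-2 and ges-1 had ratios of 0.644 and 0.609. In mutant replicate 1 relative to replicate 2, where the summed hsp-16 level had a ratio of 1.2, those of the markers were 1.4 for the intestine, 1.31 for pharyngeal muscle, 1.21 for body wall muscle and for the hypodermis, 0.987 for neurons, 0.908 for the germ line, 0.438 for sperm and 0.359 for oocytes. The neuron sum includes rab-3, listed at 0 in mutant replicate 1, and unc-119 alone had a ratio of 1.25. The part of these differences in the heat shock gene levels was not tested.

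The wider chaperone system was read from 7 lists, the hsp-16 genes included, and no gene of any list passed the threshold. Of 8 tested genes in the list of other small heat shock genes, 5 were higher and 3 lower by sign. The median log2 fold change was 0.06 there and -0.02 over all tested genes. hsp-12.3 and hsp-12.1, which encode small proteins of the family with short ends, had the smallest p of that list. For both, the only 2 of the 8, the genotypes did not overlap, beside 28.1% of all tested genes. hsp-12.3 was at 10.5 and 9.77 FPKM in libraries of wild type, with 13.9 and 19.9 FPKM in those of the mutant. Its difference was 0.67 on the log2 scale (95% interval -0.06 to 1.39, limma adjusted p = 0.9995). hsp-12.1 ran the opposite way, at 50.4 and 59.4 against 43.2 and 33.2 FPKM, a difference of -0.52 on the log2 scale (95% interval -1.12 to 0.09, limma adjusted p = 0.9995). hsp-17 stood at 368 and 298 against 299 and 234 FPKM. hsp-43 and hsp-16.21 did not pass the filter on low values, hsp-43 being listed at 0 in 3 libraries.

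The list of the cytosolic HSP70 family and its exchange factors holds constitutive and inducible genes, and its lowest and highest log2 fold changes, -0.22 and 0.34, were those of the inducible hsp-70 and of the inducible F44E5.4 and F44E5.5. In it 6 of 8 genes were higher by sign and the median log2 fold change was 0.14. The HSP70 relative F11F1.1 stood at 4.01 and 3.95 against 5.59 and 4.198 FPKM. Of the 8, only F11F1.1 had genotypes that did not overlap, beside 28.1% of all tested genes. Of HSP90 and its co-chaperones, 5 of 8 tested genes were higher by sign, with a median of 0.05. hsp-90, the cytosolic HSP90 that holds signalling proteins such as kinases and receptors, gave 1143 and 980 FPKM in wild type libraries, compared with 1251 and 1052 FPKM in mutant libraries. pph-5, a phosphatase that works with HSP90, stood at 102 and 82.2 against 98.2 and 107 FPKM, and chn-1, a chaperone-bound ubiquitin ligase, at 54.4 and 45.3 against 48.1 and 59.1 FPKM.

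All 5 tested cytosolic J proteins, which hand clients to HSP70, were higher by sign, with log2 fold changes of 0.06 to 0.12. dnj-12 stood at 224 and 182 against 225 and 205 FPKM, dnj-19 at 280 and 240 against 277 and 266 FPKM, and dnj-11 at 88.9 and 91.7 against 95.7 and 96.2 FPKM. Of the 5, only dnj-11 had genotypes that did not overlap, beside 28.1% of all tested genes. All 8 subunits of the CCT chaperonin, the ring that folds actin and tubulin, were higher by sign as well, by 0.05 to 0.15, where 46.2% of all tested genes were higher. That count fell to 2 of 8 without mutant replicate 1, and likewise without wild type replicate 2, while for the J proteins it was 2 of 5 without wild type replicate 2 and 3 of 5 without mutant replicate 2. cct-1 stood at 233 and 196 against 254 and 220 FPKM, cct-5 at 96.2 and 103 against 131 and 92.9 FPKM, and cct-8 at 156.5 and 118.7 against 165 and 132 FPKM. For cct-1 and cct-8 the genotypes overlapped, and cct-5 was highest in mutant replicate 1 and lowest in mutant replicate 2.

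Over the cytosolic chaperone list, which joins the HSP70, HSP90, J protein and CCT lists, 24 of 29 tested genes were higher by sign, beside 46.2% of all tested genes, and the median log2 fold change was 0.08. The count was 10 of 29 without wild type replicate 2, 14 of 29 without mutant replicate 1 and 28 of 29 without wild type replicate 1. For the HSP70 list it went to 3 of 8 without wild type replicate 2, and for the HSP90 list to 3 of 8 without that library and 2 of 8 without mutant replicate 1. Of all tested genes, 38.5% were higher without wild type replicate 2, 50.3% without mutant replicate 1 and 53.5% without wild type replicate 1. The median of the cytosolic chaperone list turned to -0.05 without wild type replicate 2 and to -0.01 without mutant replicate 1. Of the 29, 4 were higher in wild type replicate 1 than in replicate 2 by more than 1.5-fold, beside 14.9% of all tested genes. These were hsp-110, hsp-70, F44E5.4 and F44E5.5, the last 2 with the same values. None of the HSP90, J protein or CCT genes was past that fold. Among the regulators of HSF-1, ddl-2, part of a complex that holds HSF-1 inactive, stood at 11.3 and 8.14 against 11.1 and 10.1 FPKM. sti-1, cdc-37, dnj-13, hsf-2, hsb-1 and ddl-1 were not analysed here.

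**Figure D5:**
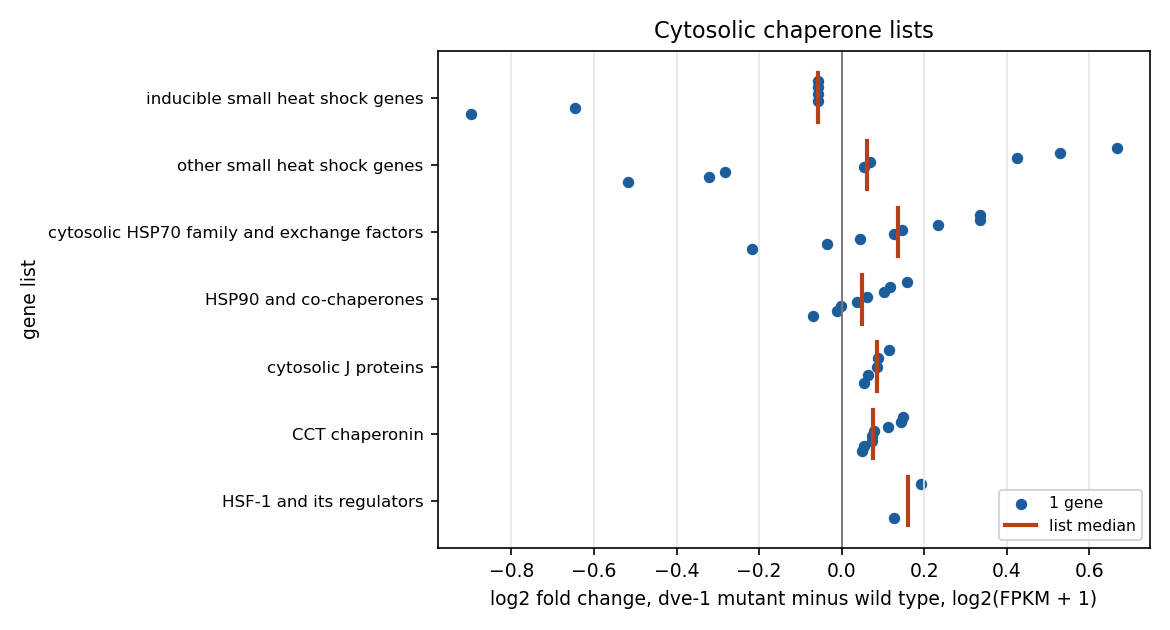
Log2 fold change, mutant minus wild type in log2(FPKM + 1), of each tested gene (blue points) in the 7 lists, with the list median as a red bar. The hsp-16 list has its 6 points at or below -0.06, the J protein and CCT lists have all points between 0.05 and 0.15, and no gene passed the threshold.

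Across the 4 libraries, the genes whose profile lay nearest to the summed hsp-16 level were sought among 10942 protein-coding genes with a mean of at least 5 FPKM, the hsp-16 genes themselves left out, by Euclidean distance between centred log2(FPKM + 1) values. The nearest were glo-2, phat-2 and B0457.6, at distances of 0.067, 0.104 and 0.114. glo-2, which acts in the making of gut granules, reached 22.9 and 9.60 FPKM among wild type libraries, whereas mutant libraries gave 14.5 and 11.9 FPKM. Among the same genes hsp-110 ranked 326, hsf-1 810, F44E5.4 2831, hsp-1 3779 and hsp-70 6881. This distance counts the size of the differences between libraries as well as their order. hsp-1, which varied little, thus lay nearer than the widely varying hsp-70, at 0.862 against 1.011. With 4 libraries, close matches among 10942 genes can arise by chance, and shared regulation was not tested.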

How the data were processed

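The authors deposited 1 table of values for 52491 RefSeq transcript accessions in 4 libraries, read here as FPKM because values are not whole and sum to 2841244 to 3080293 per library, while the header names no unit. TopHat2, Cufflinks and the build ce11 are named, per the submitters' processing notes; their versions and settings are not stated there. Accessions were matched to WBcel235 gene symbols ignoring versions (47633, 90.7%), and FPKM were summed per gene. An exact 0 can be a failed estimate. Gene positions and lengths came from Ensembl release 115, with the hsp-16 copies matched by position. No sequences are shown.

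A gene was tested if 2 or more libraries had 1 FPKM or over. The test was limma 3.58.1 in R 4.3.3 on log2(FPKM + 1), with the prior variance following the mean, two-sided, Benjamini-Hochberg over 14652 genes; this scale understates changes of low genes. The median standard error was 0.262. Depth was estimated from 1509 single-transcript genes, of whose low values 66.3% to 69.7% lay within 0.1 of whole fragments, assuming scaling to mapped fragments only.

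The members and lists were chosen with earlier results of these data known. Named genes were all members, the 3 smallest p per list, and the 3 nearest profiles to the summed hsp-16 level. Alternatives tried were a replicate block, a pseudocount of 0.1, other filters, quantile normalization, median-centring, limma with no trend, each library left out, protein-coding genes only, the highest accession only, near-identical copies summed and, added after the data were seen, a crossed block. No pair of libraries was identical.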

Additional observations from a re-analysis of the deposited data

How the results depend on the processing

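No member passed the threshold under any of the 15 alternatives, where the adjusted p ran from 0.696 to 1.00. Of 144 member results, 130 kept their direction and 14 reversed, 13 of them when a library was left out. The other was hsp-16.11, at 0.001 after quantile normalization. The members' log2 fold changes could not change with no trend, other filters, either block, protein-coding genes only or the highest accession. Those results are among the 130 and say nothing on stability. Over the fits without 1 library, the log2 fold change ran from -0.12 to 0.51 for hsf-1, -0.035 to 0.33 for hsp-1, -0.18 to 0.43 for hsp-110, -1.26 to 0.83 for hsp-70, -0.72 to 0.60 for hsp-16.1, -0.72 to 0.61 for hsp-16.11, -0.66 to 0.54 for hsp-16.48 and hsp-16.49, -1.53 to -0.27 for hsp-16.2 and -1.15 to -0.14 for hsp-16.41. The log2 ratio of the summed hsp-16 level ran from -0.75 to 0.50. Without wild type replicate 1, 4 of the hsp-16 genes were higher in the mutant by sign, where 53.5% of all tested genes were.

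The number of genes past the threshold over the whole table, 19, became 86 without the trend, 10 with a pseudocount of 0.1, 3 with no filter, 10 with a filter of 5 FPKM, and 0 among protein-coding genes (limma, 545 at an unadjusted p under 0.05). It was 0 in each fit that left out a library (513 to 858 at an unadjusted p under 0.05). With the replicate block it was 0 (516 unadjusted), and with the crossed block 0 (1264 unadjusted). Same-numbered libraries share only a number: their deviations correlated at -0.19 across genes. The block changed no other call. The cause of these shifts was not tested. The highest and lowest library medians of all tested genes differed by 0.198 on the log2 scale.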

Other observations

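The small heat shock gene sip-1, known for its expression in oocytes and embryos and singled out after its values were seen, differed by 3.43-fold between the mutant replicates. Its level was 267 and 343 FPKM in the wild type libraries, while mutant replicates 1 and 2 gave 171 and 588 FPKM. The summed oocyte markers rme-2, oma-1, oma-2 and puf-5 came to 98.7 and 76.2 FPKM in wild type libraries, and to 66.5 and 185 FPKM in mutant replicates 1 and 2. Their part in the sip-1 level was not tested. The most abundant of the other small heat shock genes, hsp-12.2, stood at 702 and 621 against 694 and 678 FPKM.

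Chaperones of other compartments were read beside the cytosolic genes, again chosen after the values were seen. Of the endoplasmic reticulum HSP70 genes, hsp-4, the form raised by stress in that compartment, was at 361 and 241 FPKM in libraries of wild type, with 261 and 295 FPKM in those of the mutant, while hsp-3 stood at 632 and 589 against 602 and 536 FPKM. The mitochondrial chaperonin gene hsp-60 stood at 404 and 282 against 458 and 476 FPKM. The ratio of wild type replicate 1 to replicate 2 was 1.5 for hsp-4, 1.07 for hsp-3 and 1.43 for hsp-60, below the 2.02 to 4.67 of the inducible cytosolic members. For hsp-60 alone of these 3 the genotypes did not overlap (log2 fold change 0.47, limma adjusted p = 0.9995), beside 28.1% of all tested genes.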
